A study of Rattus norvegicus with 352 samples.

Results

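Astrocyte genes, as the term is used here, are genes taken as markers of astrocytes in the adult brain, though not all are confined to them. A list of 37 of them was looked up by symbol in a table of 38354 genes measured in rat brain, and all 37 were found. PolyA RNA was sequenced from whole hemispheres of naive brain from heterogeneous stock rats, which are outbred animals bred from inbred founder strains and kept for genetic mapping. There was a single group, given no treatment, so the question open to these data is how far each gene differed between rats and which genes moved together. The labels used here state no age and no allele for these rats. Of the labelled samples 97.2% had a column in the table, and the other 10 were not analysed here. The labels do not say that each library came from a separate rat. The p-values therefore concern relations and differences among libraries taken as independent, and these may in part be technical.

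Astrocytes clear glutamate and potassium from around synapses, return glutamine to neurons, store glycogen, and wrap blood vessels with end-feet rich in water channels. They are joined into networks by gap junctions and release lipoproteins and matrix proteins. Astrocytes of different brain regions differ in what they express, and several genes used as their markers are also active in other cells: Vim in fibroblasts and endothelium, Sox9 in ependyma, Fabp7 in progenitors and the oligodendrocyte lineage, Clu in choroid plexus and some neurons, and Apoe in microglia.

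The sequences printed here are the 250 bases upstream of the start sites of 4 of the genes, from RefSeq on the build GRCr8, written 5′ to 3′ on the gene's strand. Gfap (chr10:88361662-88361911, minus strand) and Pla2g7 (chr9:24901748-24901997, minus strand) are shown because their levels had the largest spread for their abundance. Slc1a2 (chr3:109459859-109460108, plus strand) and Slc1a3 (chr2:59557809-59558058, minus strand) are shown because they encode the paired glutamate transporters, whose levels are compared further on.
Gfap: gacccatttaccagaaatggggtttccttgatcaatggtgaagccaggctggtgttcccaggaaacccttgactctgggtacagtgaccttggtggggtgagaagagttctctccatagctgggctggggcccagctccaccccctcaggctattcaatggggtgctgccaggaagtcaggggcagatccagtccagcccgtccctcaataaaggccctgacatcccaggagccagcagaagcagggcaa
Pla2g7: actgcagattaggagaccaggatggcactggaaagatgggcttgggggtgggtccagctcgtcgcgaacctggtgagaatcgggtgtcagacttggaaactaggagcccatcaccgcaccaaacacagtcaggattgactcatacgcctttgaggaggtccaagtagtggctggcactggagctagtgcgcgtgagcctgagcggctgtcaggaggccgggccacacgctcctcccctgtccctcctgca
Slc1a2: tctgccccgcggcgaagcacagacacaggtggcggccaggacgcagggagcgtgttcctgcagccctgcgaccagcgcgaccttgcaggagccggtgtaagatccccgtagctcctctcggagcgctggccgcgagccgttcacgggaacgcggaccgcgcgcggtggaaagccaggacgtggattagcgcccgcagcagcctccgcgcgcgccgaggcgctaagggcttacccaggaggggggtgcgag
Slc1a3: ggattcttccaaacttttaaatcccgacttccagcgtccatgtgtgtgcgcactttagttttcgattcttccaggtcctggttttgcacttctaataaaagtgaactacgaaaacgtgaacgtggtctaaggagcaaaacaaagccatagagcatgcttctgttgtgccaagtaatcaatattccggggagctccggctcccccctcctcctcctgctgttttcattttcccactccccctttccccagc
Both strands were searched for a glucocorticoid response half-site (AGAACA), an E-box (CACGTG), a D-box (TTATGTAA), a STAT site (TTCNNNGAA), an NFI site and a TATA box (TATAAA), where N is any base. A match would stand in capitals, and none of the 4 windows holds one. Of the 37 genes, 33 had a promoter in the RefSeq table. They had 42 promoters, of which 3 held the half-site, against 17.5% of all 33469 promoters in the table, and 3 the STAT site, against 7.67%. Windows at other RefSeq start sites of Slc1a2 and of Gjb6 hold 1 half-site each. They are not printed, since they start inside the gene and may hold transcribed sequence. No match says only that these letters are not in a window, and a match is no evidence of binding.

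Library totals ranged from 5418230 to 42980793 estimated counts, and 22962 to 27876 genes had a value above 0. Levels are given on the log2(CPM + 1) scale, with CPM the estimated counts scaled to the same library total and not corrected for transcript length, so levels are not ranked between genes. The tested genes were the 16683 whose mean level was 1 or more, and all 37 astrocyte genes were among them. The lowest count of any astrocyte gene in any library was 39, for Chrdl1. Sampling of reads, estimated from the counts with a Poisson formula and averaged over libraries, gave an SD of at most 0.10 for any gene. In a single library with low counts it can be larger. Markers of other cells were present, among them Snap25 of neurons (mean level 11.24 ± 0.05, SD over all libraries) and Mbp of oligodendrocytes (12.43 ± 0.11). For 6 libraries, brains 4 and 230 among them, the score of some marker list lay more than 4 SD from the median, and results were repeated without them.

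The astrocyte genes differed little between these brains. Between the 5th and 95th percentile of libraries their levels spanned 1.18-fold (Acsl6, an acyl-CoA synthetase) to 1.92-fold (Pla2g7), with a median of 1.32-fold against 1.35-fold for all tested genes. Set against the SD that genes of the same mean level showed, their median SD was 1.48 times the trend, where the median of all tested genes was 0.99. The SD was 2 times the trend or more for 9 of the 37, and for 5.14% of all tested genes. These 9 were Pla2g7, Gfap, Htra1, Fabp7, Agt, Vim, Slc6a11, Sox9 and Gjb6. Just under the threshold stood Aqp4, at 1.97 times, and just above it Gjb6, at 2.03 times. The values as deposited, which are not scaled for library total, put 0 genes at 2 times the trend.

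**Figure D1:**
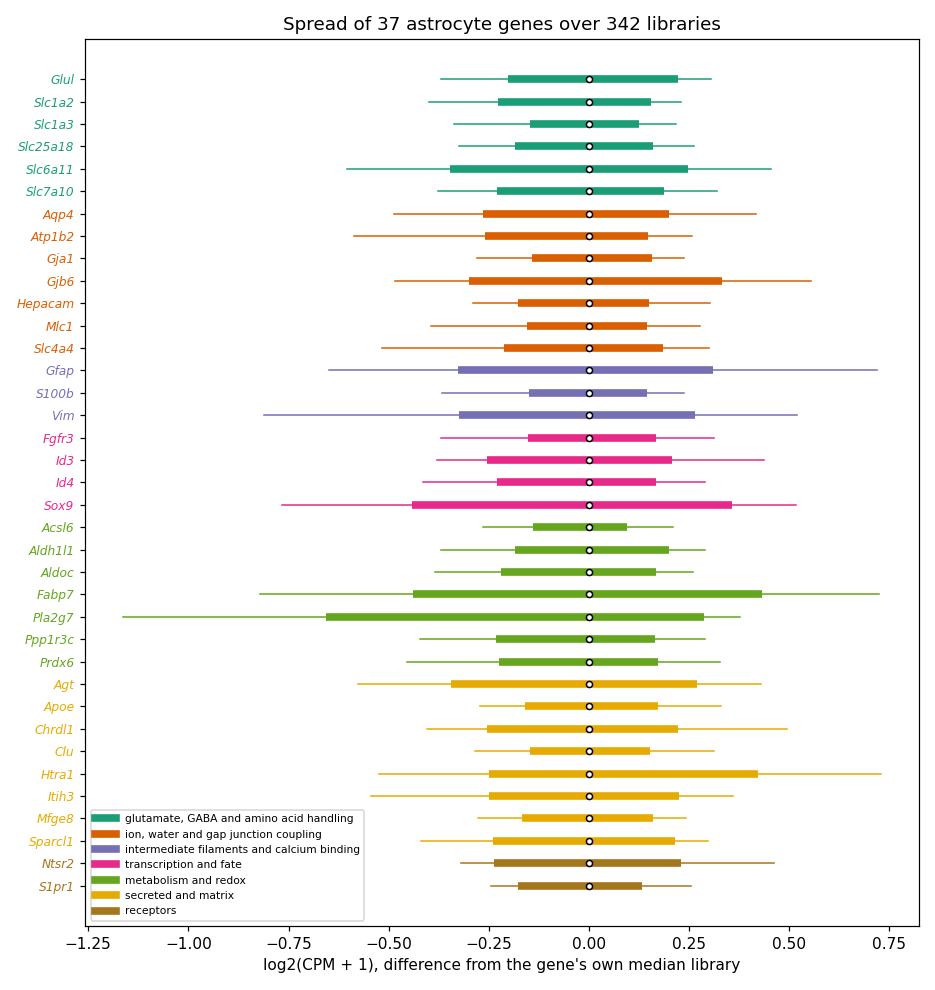
Level of each of the 37 astrocyte genes by role (colour) as log2(CPM + 1) minus the gene's own median; the thin line runs from the lowest to the highest library, the thick line from the 5th to the 95th percentile, and the point is the median. Pla2g7 has the longest lower tail and Acsl6 the narrowest thick line, 1.18-fold from end to end.

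**Figure D2:**
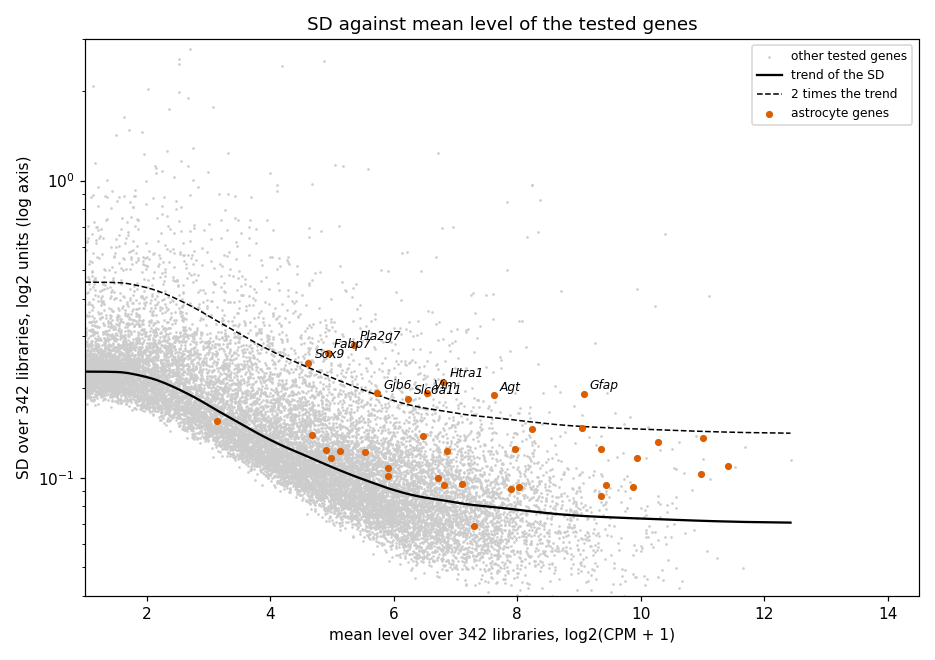
SD over all libraries (log axis) against mean level for 16683 tested genes (grey) and the 37 astrocyte genes (orange), with the trend of the SD (line) and 2 times the trend (dashed). The 9 named genes lie on or above the dashed line.

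Among genes for glutamate, GABA and amino acid handling, Slc6a11 varied most. Slc6a11, the GABA transporter GAT-3, stood at 5.64 in the lowest library, 6.24 at the median and 6.70 in the highest, an SD of 0.18 and 2.09 times the trend. Slc1a2, the main astrocytic glutamate transporter (GLT-1), stood at 11.03, 11.43 and 11.66 in the lowest, median and highest library. Slc1a3, the glutamate transporter GLAST, stood at 9.03, 9.36 and 9.58. For their levels, Slc1a2 had an SD of 1.54 times the trend and Slc1a3 of 1.17 times. Glul, the glutamine synthetase, ran from 9.91 through a median of 10.28 to 10.58. The serine transporter gene Slc7a10 and the mitochondrial glutamate carrier gene Slc25a18 had an SD of 0.12 and 0.11, 1.12 and 1.17 times the trend.

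Among genes for ion, water and gap junction coupling, the connexin gene Gjb6 varied most. Gjb6, connexin 30, stood at 5.24 in the lowest library, 5.73 at the median and 6.28 in the highest, a range spread evenly to both sides. Gja1, connexin 43 and its partner in astrocyte gap junctions, kept to 7.75, 8.03 and 8.26, with an SD of 0.09 against 0.19 for Gjb6. Aqp4, the water channel of the end-feet, ran from 8.58 through 9.06 to 9.48. Atp1b2, a subunit of the sodium pump, and Slc4a4, a sodium bicarbonate cotransporter, had an SD of 0.12 and 0.13 and longer tails at the low end. Brain 4 had the lowest Atp1b2 (8.79) and a Slc4a4 of 7.50. Mlc1 and Hepacam, whose products form a complex at the end-feet, had an SD of 0.09 and 0.10.

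Both filament genes were among the most variable. Gfap, the intermediate filament of mature astrocytes, stood at 8.43 in the lowest library, 9.08 at the median and 9.80 in the highest, 2.58 times the trend. The highest library lay clear of the next, at 9.45. Vim, the filament shared with immature and reactive astrocytes, ran from 5.73 through 6.54 to 7.06, and the lowest was brain 230. S100b, a calcium-binding protein, had an SD of 0.09, 1.27 times the trend, less than either filament.

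Of the transcription and fate genes only Sox9 passed 2 times the trend. Sox9, a transcription factor of glial fate, stood at 3.86 in the lowest library, 4.62 at the median and 5.14 in the highest, a 1.74-fold span between the 5th and 95th percentile. Fgfr3, a growth factor receptor, kept to 6.33, 6.70 and 7.01. The inhibitors of DNA binding Id3 and Id4 had an SD of 0.14 and 0.12, 1.19 and 1.24 times the trend.

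The metabolic genes held both the most and the least variable member of the list. Pla2g7, which encodes the lipase that inactivates platelet-activating factor, stood at 4.26 in the lowest library, 5.42 at the median and 5.80 in the highest. Its values crowded at the upper end with a long tail below, a skewness of -0.92, which was more negative in 2.42% of tested genes. Levels under 5 occurred in 44 libraries, 12.9% of all. Fabp7, a fatty acid binding protein, ran from 4.11 through 4.93 to 5.66 with tails of like length on both sides. Aldh1l1, a folate enzyme often taken as the general astrocyte marker, kept to 4.61, 4.98 and 5.27, 1.07 times the trend. Aldoc (an aldolase), Prdx6 (a peroxiredoxin), Ppp1r3c (a glycogen-targeting subunit) and Acsl6 ranged from 0.85 to 1.60 times the trend.

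Among secreted and matrix genes, Htra1 and Agt varied most. Htra1, a serine protease, stood at 6.25 in the lowest library, 6.77 at the median and 7.50 in the highest, with its longer tail at the high end (skewness 0.54, the most positive of the 37). Agt, angiotensinogen, ran from 7.05 through 7.63 to 8.06. Apoe and Clu, the lipoprotein genes, had an SD of 0.10 and 0.09. The other secreted genes were Sparcl1, a matrix protein (SD 0.14), Itih3, a hyaluronan-binding protein (0.15), Mfge8, an opsonin for phagocytosis (0.09), and Chrdl1, a BMP antagonist (0.16). Chrdl1 stood at 0.92 times the trend for its low level. The receptor genes S1pr1, for sphingosine-1-phosphate, and Ntsr2, for neurotensin, had an SD of 0.09 and 0.14.

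None of the 37 fell into separate levels between libraries, while 0.809% of all tested genes did. Grouped by the first 6 characters of the library name, the only grouping the labels hold, 7 blocks had at least 8 libraries. With limma's moderated F-test and Benjamini-Hochberg adjustment over all tested genes, 6 of 37 astrocyte genes differed between blocks, where 8.21% of tested genes did. The genes were Slc1a2 (adjusted p = 0.000134), Chrdl1 (0.00302), Atp1b2 (0.00774), Clu (0.0356), Sox9 (0.0442) and Ppp1r3c (0.0451). Block means spanned 0.32 for Chrdl1 and 0.17 for Slc1a2 on the log2 scale, and less for the other 4. Without the 5% of libraries with fewest genes the count was 2. What the blocks stand for is not stated. With block means removed, 9 of the 37 genes had an SD of 2 times the trend or more, as before, and the median was 1.49 times.

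The astrocyte genes rose and fell together only in part. Over all 666 pairs the median Pearson's r between libraries was 0.19, where the median r of an astrocyte gene with any other tested gene was -0.03, and 18.8% of the pairs were below 0. In a bulk sample, more or fewer astrocytes and more or less RNA per astrocyte cannot be told apart. An r of at least 0.5 was found for 40 pairs, 6.01% of them, against 0.584% of pairs of an astrocyte gene with another gene, and these 40 drew on 20 of the 37 genes. No pair was at -0.5 or lower, where 1.18% of pairs with other genes were. Pairs sharing a role reached 0.5 in 9 of 95 cases and pairs of different roles in 31 of 571. The pairs share all their libraries and are no independent replicates.

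Many of the highest values lay within 2 groups of genes. In the first, Aldoc and Agt reached 0.76, Atp1b2 and Aldoc 0.73, Atp1b2 and Agt 0.69, and Slc4a4 and Atp1b2 0.65. Atp1b2 had an r of at least 0.5 with 9 of the other 36 genes, Agt with 7, and Aldoc and Clu with 6 each. In the second, Gjb6 and Htra1 reached 0.76, Glul and Gjb6 0.73, and Glul and Htra1 0.69. Aqp4 and Gfap reached 0.65 with each other, and 0.60 and 0.51 with Atp1b2 of the first group. The 2 groups were read from the highest pairs, and how separate they are was not tested. The lowest values were found for genes of the second group: Id4 and Htra1 had an r of -0.49, Gjb6 and Fabp7 -0.48, and Glul and Fabp7 -0.40. No other gene of the list reached 0.5 with Slc1a2, Sox9, Fabp7, Aldh1l1 or Pla2g7.

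**Figure D3:**
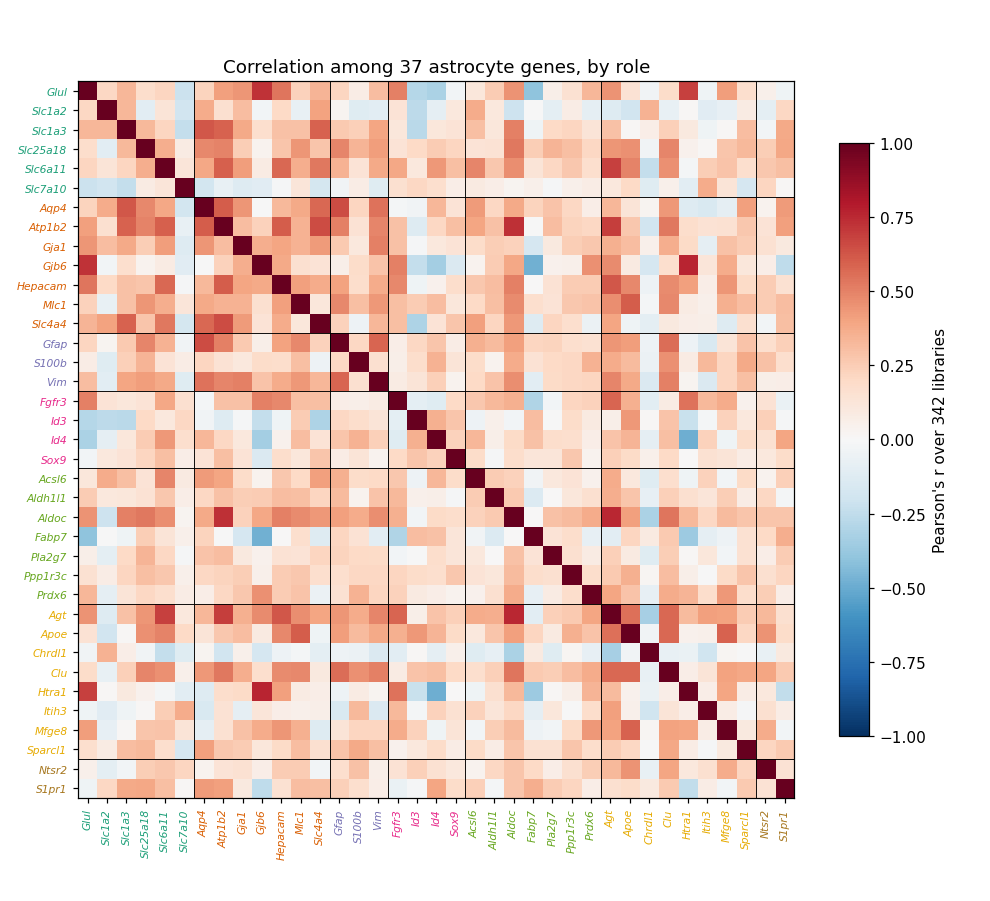
Pearson's r over all libraries for each pair of the 37 astrocyte genes, ordered and coloured by role with lines between roles; red is positive and blue negative. Rows of Atp1b2, Agt and Aldoc are mostly red and rows of Slc7a10 and Chrdl1 pale. Fabp7 has blue cells with Gjb6, Glul and Htra1 (-0.48, -0.40 and -0.36). Gjb6, Htra1 and Glul form deep red cells around r 0.69 to 0.76, as do Aldoc, Agt and Atp1b2.

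Nuclear noncoding RNAs, whose share can vary with the quality of an RNA sample, moved with many of these genes. Levels of the nuclear noncoding RNA Meg3 correlated with the astrocyte genes at r from -0.69 (Atp1b2) to 0.22 (Slc7a10), with a median of -0.31, where the median over all tested genes was 0.05. Another nuclear noncoding RNA, Miat, gave -0.71 to 0.23, and library total -0.08 to 0.17. Library total, ribosomal RNA share, Meg3 and Miat are called the technical covariates here. With them regressed out, the median r among the 37 was 0.10 and 16 pairs reached 0.5. What Meg3 and Miat followed in these libraries was not tested, so this step may also remove differences that are not technical. With median ratio scaling 85 pairs reached 0.5. With scores of 6 lists of regional neurons regressed out, a repeat chosen after seeing the data, the median was 0.11 and 12 pairs reached 0.5.

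Pairs of genes whose products work together or mark the same subset were tested one by one, 24 in all. In 20 the r was above 0 past limma's threshold, in 1 below 0, and 3 did not pass. Over all tested genes the same tests called 20.5% positive and 32.2% negative, with 9.73% (Aldh1l1) to 27.9% (Aldoc) positive depending on the first gene of the pair. An r of at least 0.5 was reached by 5 of the 24.

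The glutamate transporters Slc1a2 and Slc1a3, whose upstream sequences are printed above, moved together weakly. Their r was 0.33 (rho 0.36, both permutation p = 1e-05, the smallest that 100000 permutations can give; limma adjusted p = 3.02e-09), and within blocks it ran from 0.22 to 0.56. Glul had an r of 0.33 with Slc1a3 (permutation p = 1e-05) and 0.21 with Slc1a2 (permutation p = 0.0001), the latter from -0.50 to 0.36 within blocks. Atp1b2 with Slc1a2 reached 0.16 (limma adjusted p = 0.00524), and 0.11 with an adjusted p of 0.0718 once block means were removed. Slc6a11 and Slc7a10 had an r of 0.12 (limma adjusted p = 0.037), with 0.11 (adjusted p = 0.0523) without the 6 libraries that stood apart.

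The end-foot and filament genes were more tightly linked. Aqp4 and Gfap had an r of 0.65 (rho 0.66, limma adjusted p = 8.67e-41), 0.64 with the 2 libraries of most extreme Aqp4 left out and 0.04 to 0.74 within blocks. Aqp4 and Slc4a4 had 0.57 (0.43 to 0.84 within blocks), and Gfap and Vim 0.59 (0.32 to 0.85). The complex partners Mlc1 and Hepacam had 0.41, Aqp4 and Mlc1 0.38, and the connexins Gja1 and Gjb6 0.37. Gfap and S100b had 0.20 (limma adjusted p = 0.000351), and 0.10 (adjusted p = 0.256) with the technical covariates regressed out. For each of these r and rho differed by less than 0.05.

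Of the 24 pairs, Agt and Slc6a11 had the highest r, 0.69 (rho 0.67, limma adjusted p = 6.18e-47, 0.43 to 0.76 within blocks). It was 0.26 after the 6 regional neuron scores were regressed out. Apoe and Clu had an r of 0.57 (rho 0.58, 0.39 to 0.79 within blocks), Agt and Itih3 0.41, and Sparcl1 and Clu 0.39. Id3 and Id4 had 0.35, Aldh1l1 and Aldoc 0.26, Sox9 and Fgfr3 0.20 (0.11, limma adjusted p = 0.256, after the regional scores were regressed out), and S1pr1 and Ntsr2 0.14 (limma adjusted p = 0.0195, and 0.0597 without the 5% of libraries with fewest genes).

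Htra1 and Id3 moved in opposite directions, with an r of -0.22 (limma adjusted p = 0.000403), below 0 in each of the 7 blocks (-0.36 to -0.10). Sox9 and Aldh1l1 had an r of -0.02 (limma adjusted p = 0.869), Aldoc and Fabp7 0.01 (0.937), and Fabp7 and Vim -0.10 (0.115). The last was -0.26 (adjusted p = 2.36e-05) after the technical covariates were regressed out. All 24 pairs, that of Htra1 with Id3 included, were above 0 in the values as deposited, where library total is not removed.

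As reference points, 6 of the genes differed in how many others followed them. An r of at least 0.5 to Gfap was found for 4 of the other 36, Aqp4, Vim, Clu and Atp1b2, against 0.222% of tested genes. Vim also had 4, Aqp4, Gja1, Gfap and Clu, against 0.701%. Slc1a2, Sox9, Fabp7 and Aldh1l1 had 0 each, against backgrounds of 1.31%, 0.024%, 0.186% and 0%. In all, 6 of the 37 followed some reference gene at 0.5, and 2 with the technical covariates regressed out.

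The genes outside the list with the highest positive r to these reference points, called closest here, differed from one to the next. Closest to Slc1a2 were the NMDA receptor gene Grin2a (r 0.73), the exchanger gene Slc24a2 (0.73) and the protocadherin gene Pcdh7 (0.72), and its r with the 36 other astrocyte genes had a median of 0.00. Closest to Vim were Aebp1 (0.83), Timp3 (0.76) and Igf2 (0.74), genes active in fibroblasts. Closest to Gfap were Igfbp2 (0.65), Aebp1 (0.62) and Igf2 (0.62). Closest to Sox9 were the transcription factor genes Sox2 (0.62) and Nkx2-2 (0.61) and the RNA-binding protein gene Zfp36l2 (0.59), while Zfp189 stood further from 0 on the negative side (-0.68, chosen after its value was seen). Closest to Fabp7 were Eml1 (0.70), the myelin gene Opalin (0.67) and Gltp (0.66).

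Against scores of other cell types and brain regions, several astrocyte genes moved with marker genes of brain regions. A score is the mean z value of the listed marker genes. Over 740 relations of a gene with a score, 13 of the 37 genes reached 0.5 in size with some score at a limma adjusted p under 0.05, where 17.8% of all tested genes did, and 8 of the 37 did with the technical covariates regressed out. With the 6 hindbrain neuron genes, 7 of 37 reached 0.5, against 2.78% of tested genes. These were Slc6a11 (0.75), Agt (0.73), Atp1b2 (0.72), Aldoc (0.65), Slc4a4 (0.60), Hepacam (0.55) and Aqp4 (0.50). Summed CPM of the hindbrain list ran from 13.3 through a median of 75.4 to 117.2 per library, with 3 of its 6 genes at 0 in some library.

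For Slc6a11 the relation with the hindbrain score had a rho of 0.74 (permutation p = 1e-05, limma adjusted p = 2.03e-61), with 0.43 to 0.95 within blocks. Agt had a rho of 0.70 and 0.63 to 0.82 within blocks, and Atp1b2 a rho of 0.66 and 0.15 to 0.81. Each of the 3 had an r of at least 0.5 with all 6 hindbrain genes, among them Tph2 and Slc6a4 of serotonin neurons and Glra1, a glycine receptor. After the technical covariates were regressed out the r values were 0.62, 0.53 and 0.49. Slc1a2, chosen after its values were seen, had 0.04 with the same score (limma adjusted p = 0.486), and Slc1a3, chosen likewise, 0.38.

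The hypothalamic score had 4 genes at 0.5 or more, against 1.43%, led by Agt (0.68, rho 0.69), Slc6a11 (0.63) and Clu (0.53). The thalamic and habenular score had Slc6a11 alone (0.65, rho 0.63), against 0.48%. The cerebellar score had 4, against 1.94%: Atp1b2 (0.61), Aldoc (0.58), Slc4a4 (0.55) and Slc1a3 (0.52). In brain 4 the cerebellar score lay at -11.8 SD from the median and the granule cell gene Gabra6 stood at 1.03, against 6.75 to 7.79 in the other 5 libraries that stood apart. Without those 6 libraries the r of Atp1b2 with the cerebellar score was 0.60.

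Scores of cortical and hippocampal neurons and of striatal neurons ran the other way. With cortical and hippocampal neurons 5 of 37 were at -0.5 or lower, against 1.84%: Slc4a4 (-0.63, rho -0.61), Aldoc (-0.61), Agt (-0.60), Atp1b2 (-0.59) and Slc6a11 (-0.58). With median ratio scaling the value of Aldoc was -0.43, and with the technical covariates regressed out -0.36. With striatal neurons 4 were at -0.5 or lower, against 1.45%, led by Slc4a4 (-0.58) and Atp1b2 (-0.58). Of the 37, 5 were above 0 with the cortical and hippocampal score, with Chrdl1 highest at 0.34 (limma adjusted p = 1.09e-09, chosen after its values were seen). Over the 37 genes the median r was -0.26 with the cortical score and 0.30 with the hindbrain score, where all tested genes had 0.02 and -0.06.

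**Figure D4:**
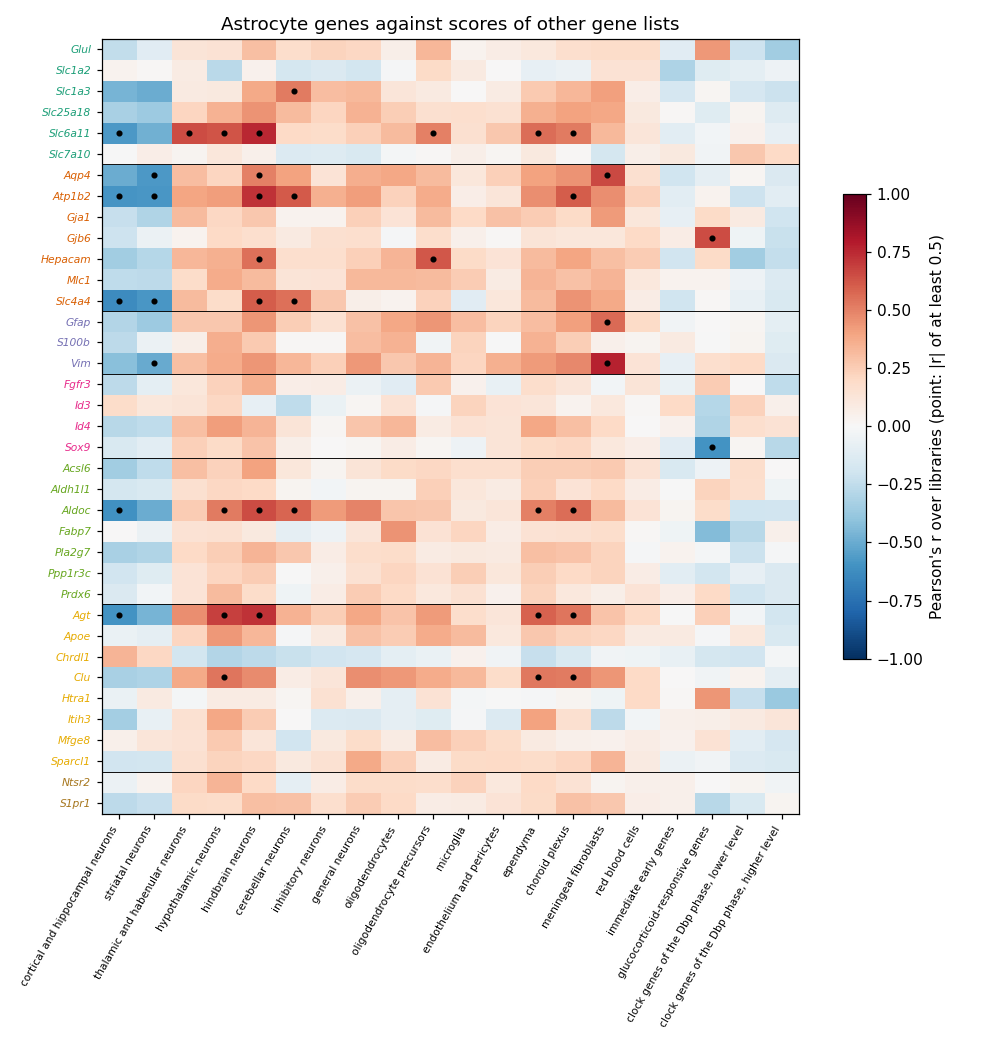
Pearson's r over libraries for each of the 37 astrocyte genes (rows, coloured by role) with each of 20 scores (columns), over all libraries or those of the lower and higher level of the clock score. Points mark an r of at least 0.5 in size, which cluster in the rows of Slc6a11, Atp1b2, Aldoc and Agt.

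Markers of the linings of the brain moved with Vim, Aqp4 and Gfap. With 10 meningeal fibroblast genes, Vim had an r of 0.77 (rho 0.76, limma adjusted p = 9.89e-67, 0.66 to 0.88 within blocks), Aqp4 0.66 (rho 0.64, 0.34 to 0.83) and Gfap 0.56 (rho 0.57, 0.52 to 0.69), and these 3 stood against 0.666% of tested genes. Vim reached 0.5 with 8 of the 10 fibroblast genes one by one, among them Igf2 (0.74), Bgn (0.73) and Col1a2 (0.72), Aqp4 with 6 and Gfap with 5. The summed CPM of the list ran from 160.9 through 317.7 to 505, all 10 genes were above 0 in every library, and brain 230 had both the lowest score and the lowest Vim. Without the 6 libraries that stood apart the r of Vim was 0.75, and with the technical covariates regressed out it was 0.63. How much of the RNA of Vim came from fibroblasts was not tested.

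The ependyma score had 4 genes at 0.5 or more, against 1.23%, with Agt (0.59), Slc6a11 (0.56) and Clu (0.52) the highest. The choroid plexus score had 5, against 1.33%, with Atp1b2 (0.61), Aldoc (0.56) and Agt (0.54) the highest. With the technical covariates regressed out the choroid plexus values were 0.29, 0.21 and 0.23. The score of oligodendrocyte precursors had 2, Hepacam (0.62, rho 0.62) and Slc6a11 (0.50), against 0.234%. Fabp7, chosen after its values were seen, had its highest r with mature oligodendrocytes, 0.45 (limma adjusted p = 3.13e-17, 0.32 to 0.79 within blocks), and no gene of the 37 reached 0.5 in size with that score, where 1.11% of tested genes did. No gene of the 37 reached 0.5 in size with microglia, endothelium and pericytes, inhibitory neurons, general neurons, red blood cells or immediate early genes. The shares of tested genes at that size were, in that order, 0.036%, 0.18%, 0.03%, 6.96%, 0.012% and 0.516%. With general neurons Aldoc stood just under the threshold, at 0.499. The median r of the 37 with that score was 0.24, where all tested genes had -0.04, and 32 of the 37 were above 0.

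Genes that respond to glucocorticoids, the adrenal stress hormones, moved with Gjb6 and against Sox9. With a score of 10 such genes Gjb6 had an r of 0.65 (rho 0.63, limma adjusted p = 6.89e-41, 0.42 to 0.83 within blocks), where 0.6% of tested genes reached 0.5. Sox9 had -0.60 (rho -0.60, limma adjusted p = 2.15e-32, -0.84 to -0.31 within blocks), where 0.126% were at -0.5 or lower. With the technical covariates regressed out the values were 0.65 and -0.63. Gjb6 was above 0 with all 10 of the genes and reached 0.5 with 5, Sult1a1 (0.77), Fkbp5 (0.69), Cdkn1a (0.63), Tsc22d3 (0.55) and Errfi1 (0.52). Sox9 was below 0 with all 10 and at -0.5 or lower with 4, Pdk4 (-0.62), Sgk1 (-0.60), Errfi1 (-0.60) and Tsc22d3 (-0.53). Gjb6 and Sox9 followed different genes of the list most closely, and their r with each other was -0.14.

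Other genes of the list, chosen after their values were seen, were ordered in the same score. Htra1 had an r of 0.44 (limma adjusted p = 7.92e-16) and Glul 0.43 (2.4e-15), while Fabp7 had -0.43 (3.39e-15). Gja1, the connexin partner of Gjb6, had 0.19 (limma adjusted p = 0.00315), and Pla2g7 -0.02 (0.874). With the 10 score genes taken one by one, the r values were uneven. Those of Htra1 ran from -0.16 (Per1) to 0.69 (Sult1a1), and those of Glul from -0.16 (Per1) to 0.57 (Sult1a1). Htra1 and Glul were each above 0 with 9 of the 10. Fabp7 was below 0 with all 10, from -0.57 (Fkbp5) to -0.12 (Cdkn1a). Summed CPM of the score genes ran from 366 through 621 to 914.

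The score of clock genes that peak with Dbp fell into 2 levels, with 14.9% of libraries in the lower and 85.1% in the higher, so relations were computed within each. No astrocyte gene reached 0.5 in size in either, where 0.03% of tested genes did in the lower level and 0.018% in the higher. Htra1 had an r of -0.37 within the higher level (limma adjusted p = 1.37e-08) and -0.23 within the lower (permutation p = 0.101, limma adjusted p = 0.787), both chosen after their values were seen. The difference between levels was not tested.

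**Figure D5:**
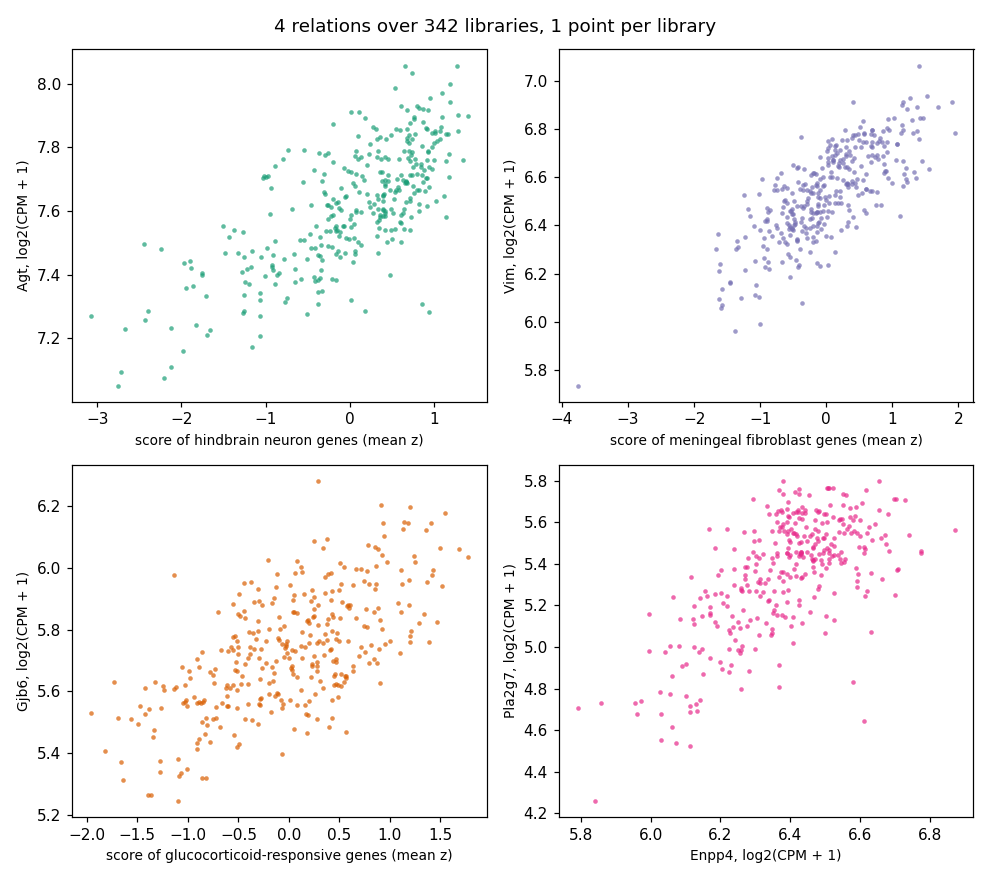
One point per library: Agt against the hindbrain neuron score, Vim against the meningeal fibroblast score, Gjb6 against the glucocorticoid score, and Pla2g7 against Enpp4. The r values are 0.73, 0.77, 0.65 and 0.66; brain 230 lies alone at the lower left of the Vim panel, and low Pla2g7 values occur mostly where Enpp4 is low.

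Pla2g7, the most variable gene of the list, followed none of the other astrocyte genes and none of the scores at 0.5. Of all 16682 other tested genes only Enpp4, an ectonucleotide pyrophosphatase, reached that size (0.00599%). It lies on the same chromosome 9, with its start 515396 bases from that of Pla2g7, and the pair was chosen after its values were seen. Enpp4 stood at 5.79 in the lowest library, 6.40 at the median and 6.87 in the highest. The r was 0.66 (rho 0.60, both permutation p = 1e-05, limma adjusted p = 5.16e-41), 0.65 with the 2 libraries of most extreme Pla2g7 left out, and 0.59 to 0.85 within blocks. The next gene after Enpp4 had an absolute r of 0.39 with Pla2g7. The other 10 tested genes within 1 Mb of Pla2g7 had an r from -0.15 (Clic5) to 0.34 (LOC134480346).

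The gene of largest absolute r started within 1 Mb for 3 of the 37, Pla2g7, Sparcl1 (Mepe, -0.51) and Ppp1r3c (Hectd2, -0.47), against 7.53% of tested genes, a share near the background. For 3 of the 37 the gene of largest absolute r was another astrocyte gene: Mlc1 with Apoe, Gfap with Aqp4 and Htra1 with Gjb6.

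Other genes known from astrocytes or their pathways were looked up in the same way. Of 30 other astrocyte genes 14 reached an r of 0.5 with some gene of the list, against 9.92% of tested genes outside it. Of the same 30, 4 passed 2 times the trend in SD, against 5.14% of all tested genes. The highest by their median r with the list were the acyl-CoA synthetase gene Acsbg1 (0.32), the potassium channel gene Kcnj16 (0.30) and Tril (0.27), and the lowest was Gldc, of the glycine cleavage system (-0.12). Among 12 other genes of the glutamate-glutamine cycle 7 reached 0.5, with Glud1, the glutamate dehydrogenase, highest (median 0.35), followed by Slc17a6 (0.28) and Got2 (0.26). Among 12 genes of glycogen and lactate handling 6 reached 0.5, with Pgm1 (0.33), Pygb (0.30) and Ldhb (0.28) highest and the lactate transporter gene Slc16a7 lowest (-0.18). In both metabolic lists 0 genes passed 2 times the trend in SD.

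Of 29 genes known to rise in reactive astrocytes, 6 did not reach a mean level of 1: Lcn2, Steap4, Cxcl10, Serpina3n, Tgm1 and Ptx3. Of the 23 tested, 5 reached an r of 0.5 with a gene of the list, against 9.92% of tested genes outside it. Of the same 23, 3 passed 2 times the trend in SD, against 5.14% of all tested genes. The highest medians were those of Amigo2 (0.22), Fbln5 (0.20) and Serping1 (0.20), and the lowest that of Clcf1 (-0.19). Over all tested genes, those outside the list with the highest median r to it included Scd2, Glud1, Aldh2, Pgm1, Slc41a1, Nefh, Gprc5b and Dennd5a, at 0.32 to 0.35. Among them were enzymes of lipid, glutamate and aldehyde metabolism (Scd2, Glud1 and Aldh2) and also Nefh, a neurofilament gene of neurons.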

How the data were processed

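The authors deposited a table of log2 values per gene and library, with 342 libraries of the 352 samples in the labels, and n = 342 for every value over all libraries. The blocks hold 335 libraries and the levels of the clock score 51 and 291. Per the submitters' processing notes kallisto was used, with a version not given in the sources used here. Undoing the log2 and subtracting 1 gives estimated counts, not scaled for depth. Of the turned-back values between 0.5 and 5, 63.2% were whole within 0.002. Per the labels' protocols, RNA from frozen tissue was extracted with TRIzol, polyA RNA was enriched and libraries were directional, and the labels say that 14 libraries were renamed.

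Counts were scaled to CPM and given as log2(CPM + 1), which understates folds of low genes. The trend was a lowess fit of SD on mean level (fraction 0.2). Separate levels were sought with mixtures of 1 to 3 Gaussian components (Bayesian information criterion lower by more than 10, means 4 SD apart, at least 5% of libraries each). Relations were tested with limma 3.58.1 (R 4.3.3) over all tested genes with Benjamini-Hochberg adjustment and a threshold of 0.05, and with two-sided permutation tests of r (Pearson) and rho (Spearman) with 100000 permutations, using Python 3.11.15. The SD call, the separate levels, limma's F-test and the call of r of at least 0.5 were checked on simulated data. In these the unchanged genes varied independently, unlike real genes, and the permutation tests were not checked. The 37 genes, the lists, pairs and scores were chosen with earlier results of these data known. All 37 genes are accounted for, and named besides them are the members of the fixed pairs, up to 3 highest genes and the lowest of each related list, the 10 nearest other genes, up to 3 highest and 2 lowest genes of each score past 0.5 (the rest of those past 0.5 are named to complete small counts), the 3 nearest genes of each reference gene, and genes marked as chosen after seeing their values. A few genes that this rule names are not reported here. Coordinates and gene starts are from RefSeq on GRCr8, where all 37 symbols matched. Brains are numbered in accession order. Alternatives were the values as deposited, median ratio scaling, a pseudocount of 0.1, other level minima, block means taken out, leaving out the 5% of libraries with fewest genes, technical covariates regressed out, and Spearman's rho. Alternatives added after seeing the data were leaving out the 6 libraries that stood apart (brains 4, 171, 191, 230, 323 and 342) and regression on 6 regional neuron scores.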

Additional observations from a re-analysis of the deposited data

How the results depend on the processing

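No paired analysis was possible because the labels give a single group. With the values as deposited, not scaled for library total, the median level was 11.26 (6.86 with CPM), 0 genes passed 2 times the trend (9 with CPM), the median r was 0.91, all 666 pairs reached 0.5, and 37 genes reached it with a reference gene (6 with CPM) and 37 with a score (13 with CPM). In these values the r of Sox9 with Aldh1l1 was 0.79, of Fabp7 with Vim 0.70, of Htra1 with Id3 0.77, of Slc4a4 with the cortical and striatal scores 0.90 and 0.88, of Aldoc with the cortical score 0.90, of Atp1b2 with the striatal score 0.88, and of Sox9 with the glucocorticoid score 0.47. With median ratio scaling, 85 pairs (40 with CPM) reached 0.5, 10 genes did with a reference gene, and Sox9 with Aldh1l1 had 0.033. With the technical covariates regressed out the median r was 0.10, 16 pairs reached 0.5, 2 genes did with a reference gene and 8 with a score. With the regional neuron scores regressed out, an alternative added after seeing the data, the median r was 0.11, 12 pairs reached 0.5 and 3 genes did with a reference gene. The r of Aldoc with Fabp7, 0.01, was -0.00037 with block means removed, -0.0068 without the libraries with fewest genes, -0.10 with the technical covariates, -0.0041 without the libraries that stood apart and -0.025 with the regional scores regressed out. Genes differing between blocks numbered 3 when every gene above 0 in 20% of libraries was tested and 2 without the libraries with fewest genes, against 6. Apart from the values as deposited, the count of genes at 2 times the trend lay between 9 and 11, and the alternatives run for separate levels left the count at 0. Genes other than the 9 named passed in some alternatives. Sparcl1 and Itih3 stood at 2.06 and 2.09 times the trend with the technical covariates regressed out. With the regional scores regressed out, Sparcl1, Glul and Itih3 stood at 2.47, 2.24 and 2.01 times. The cause of these differences was not tested. Read sampling, by the same estimate averaged over libraries, gave an SD of up to 0.10, for Chrdl1. The SD of Chrdl1 between libraries was 0.16, so depth limits the precision of the low genes.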
